A study of Mus musculus with 8 samples.

Results

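The Eph receptors, ephrins, semaphorins, plexins, Slits, Robo receptors and Unc5 receptors of the mouse were followed across induction of Runx1 in cultured hemogenic endothelium, the vascular cells that give rise to blood. Members were all genes whose symbols belong to these 7 families by name (Robo1 to Robo3 for the Robo receptors), after the RefSeq accession of each probe had been turned into a symbol. This gave 61 genes measured by 77 probes, out of 20145 named genes on the array. Of the 61, 53 passed the filter on dim probes, meaning that in at least 1 group the scanner software flagged a probe as well above background on each of the 3 arrays. These 53 were tested, and 50 of them were well above background on all 6 arrays. The other 8 were not tested and are named at the end.

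The groups were 3 arrays of iRUNX1 cells given doxycycline (induced) and 3 arrays of iRUNX1 cells without it (uninduced), with 1 technical repeat array of each. The repeats stayed out of the tests, except in an alternative fit that counted them as a further replicate. All cells carried the doxycycline-inducible Runx1 construct, were labelled as strain C57BL/6, and came from mouse embryonic stem cells that grew as embryoid bodies for 3.25 days, were sorted by magnetic beads for the VEGF receptor Flk-1 before and after a culture in blast medium, and were then kept for 2 days as hemogenic endothelium. The overnight doxycycline dose is stated in the labels as 0.3 µl/ml. Whether the cells' own Runx1 genes are intact and whether the line is a single clone is not given in the labels, and doxycycline on cells without the construct was not analysed here. Every comparison is thus between cells with and without the drug. The design text calls the replicates independent and biological but does not say what was repeated, so p-values measure the spread between these arrays.

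Processed signals had a 75th percentile of 542.8 to 973.4 on induced and 337.9 to 699.4 on uninduced arrays. The inducible gene itself could not be checked. One Runx1 probe was well above background on 0 arrays. The other read -6.14, -5.71 and -4.95 in induced cells, against -4.71, -4.72 and -4.28 in uninduced cells, which is low in both groups and lower in induced cells. Whether either probe matches the part of Runx1 in the construct is unknown here, so they do not test the labels. The summed signal of blood markers, given after the results and weighted most by Itgb3, was higher on all induced arrays.

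Guidance molecules were first described in growing axons and also steer endothelial and blood cells. Ephrins sit on the membrane and signal to Eph receptor kinases on neighbouring cells, with signals running both ways. Semaphorins, secreted or membrane-bound, act through plexins, often with a neuropilin as coreceptor. Slits bind Robo receptors, and netrins bind Dcc and the Unc5 receptors. In vessels, ephrin-B2 marks arteries and its receptor EphB4 marks veins, and Sema3e signalling through plexin-D1 shapes the vascular pattern.

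Values are log2 signals relative to the 75th percentile of the array's processed signal, so 0 is that percentile and 1 is a doubling. They compare arrays, and the levels of different genes cannot be set against each other, since each probe binds with its own strength. A gene was called when its adjusted p in limma was under 0.05, with Benjamini-Hochberg adjustment over all 14503 genes tested. From these values, the replicate numbers were taken to pair the arrays. A fit with the replicate number as a block is therefore given wherever it changed the call of a gene named here.

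Of the 53 guidance genes tested, 3 rose (Sema4d, Epha1 and Unc5c), 3 fell (Efnb1, Plxnc1 and Unc5a) and 47 did not pass. The 6 are 11.3% of the members, against 6.31% of all genes tested, where 4.14% rose and 2.17% fell. With the replicate block 4 members rose and 10 fell. These are 26.4% of the members, against 16.2% of all genes, where 9.37% rose and 6.81% fell, and the 14 included all 6. The falls depended on the scaling. With median centring 3 members rose and 0 fell, with quantile normalization 3 rose and 2 fell, and scaling to spike-in RNA gave 4 that rose and 0 that fell. The 4 were Sema4d, Epha1, Unc5c and Sema7a. Falls among all 14503 genes also depended on it. There 601 rose and 314 fell in the main fit, 722 and 215 with median centring, and 594 and 298 with quantile normalization. Among all genes, spike-in scaling called 4.76%, with 4.73% that rose and 0.0276% that fell. Leaving out 1 array gave 2 to 4 calls, and Sema4d and Epha1 were called in each of these 6 fits. The median log2 difference was -0.19 over the members and 0.09 over all genes, and 34 of the 53 members had a lower value in induced cells, against 5943 of the 14503 genes tested. The members' median was -0.10 without uninduced replicate 3, and with median centring it was -0.03, against 0.25 over all genes. Spike-in scaling added 1.29 to every difference and so moved these medians to 1.09 and 1.38. The added shift was 1.16, 0.80 and 1.90 in replicates 1, 2 and 3 but 0.14 between the technical repeats.

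**Figure D1:**
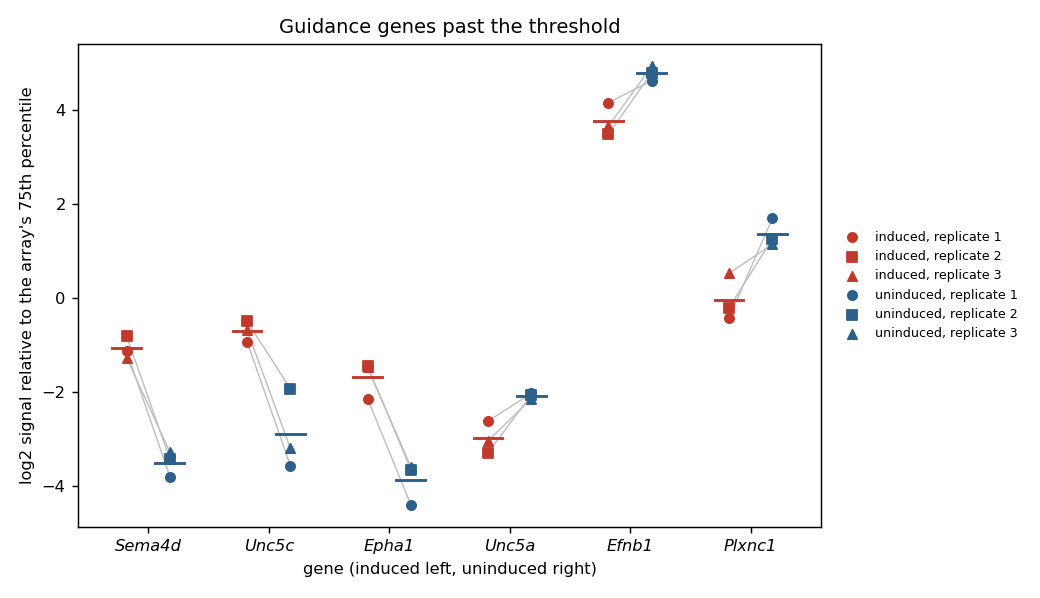
Log2 signal relative to the array's 75th percentile (y axis) for the 6 guidance genes past the threshold (x axis), with induced arrays on the left and uninduced arrays on the right of each gene. Points are single arrays, short bars are group means, and grey lines join arrays with the same replicate number. The groups of 3 arrays do not overlap for any of the 6 genes, and the uninduced arrays of Unc5c spread from -3.56 to -1.92.

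The semaphorins hold the largest rise among the members. Sema4d, the membrane-bound semaphorin CD100 of lymphocytes and a ligand of plexin-B1, read -1.12, -0.80 and -1.26 on the induced arrays of replicates 1, 2 and 3, against -3.79, -3.42 and -3.27 on the uninduced arrays. The 2 groups were far apart, with every induced array more than 2 log2 units above every uninduced one. Sema4d rose by 2.43 (SE 0.20), or 5.39-fold (limma, adjusted p 0.00262). It was 2.28 to 2.54 with 1 array left out, 1.35 with normexp background correction and 3.72 with spike-in scaling, and all of these passed. The technical repeats, outside the test, read -0.87 in induced and -3.56 in uninduced cells.

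The promoters of the 3 genes that rose are shown because RUNX factors bind the core letters TGTGGT and TGCGGT. The windows are from RefSeq (GRCm38.p6) and run from 250 bases before to 50 bases after an annotated start, 5′ to 3′ on the gene's strand. Capitals mark either core on either strand, and the 2 cores do not overlap here. For Sema4d, which has 3 annotated windows, the window with a match is printed.
Sema4d, chr13:51748761-51749060, minus strand: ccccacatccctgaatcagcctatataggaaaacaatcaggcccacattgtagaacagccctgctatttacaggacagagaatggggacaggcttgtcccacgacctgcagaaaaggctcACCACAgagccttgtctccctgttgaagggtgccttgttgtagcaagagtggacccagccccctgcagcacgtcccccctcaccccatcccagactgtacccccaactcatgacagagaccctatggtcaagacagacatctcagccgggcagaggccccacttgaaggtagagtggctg
Unc5c, chr3:141465314-141465613, plus strand: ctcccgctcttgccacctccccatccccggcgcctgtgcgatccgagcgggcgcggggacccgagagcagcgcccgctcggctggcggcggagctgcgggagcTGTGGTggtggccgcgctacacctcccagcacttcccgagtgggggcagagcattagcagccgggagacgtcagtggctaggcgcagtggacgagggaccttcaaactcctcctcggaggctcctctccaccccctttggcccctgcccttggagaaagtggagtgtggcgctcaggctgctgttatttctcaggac
Epha1, chr6:42373219-42373518, minus strand: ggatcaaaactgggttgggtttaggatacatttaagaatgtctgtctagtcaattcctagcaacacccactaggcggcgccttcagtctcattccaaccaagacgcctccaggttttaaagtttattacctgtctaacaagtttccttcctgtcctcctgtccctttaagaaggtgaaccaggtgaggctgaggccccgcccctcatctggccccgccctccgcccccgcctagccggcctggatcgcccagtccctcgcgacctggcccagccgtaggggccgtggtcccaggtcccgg
The match begins 130 bases before the start in Sema4d, as the reverse complement, and 147 bases before it in Unc5c. The Epha1 window and the other 2 Sema4d windows hold neither core. Of 32851 promoter windows of all genes 22.4% hold a core, against 21.7% (15 of 69) of the windows of guidance genes. Among the genes that fell, the Efnb1 window holds 1 and those of Plxnc1 and Unc5a hold none. A match describes these letters only.

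Sema7a, a glycolipid-anchored semaphorin found on blood cells that binds plexin-C1 and integrins, gave the other large positive difference of its family. It read 0.76, 1.06 and 2.21 in induced cells, against -2.97, -0.51 and 0.89 in uninduced cells. The groups overlapped, yet the induced array was higher in all 3 pairs, by 3.73, 1.56 and 1.32. The difference of 2.20 (SE 0.95) did not pass in limma (adjusted p 0.241), but passed with the replicate block (0.0425) and with spike-in scaling (3.49, adjusted p 0.000448). Without uninduced replicate 1, the lowest array, it was 1.15. Its receptor Plxnc1, which encodes plexin-C1, read -0.42, -0.20 and 0.53 in induced cells, against 1.70, 1.26 and 1.15 in uninduced cells, with no overlap. Plxnc1 fell by 1.40 (SE 0.29, adjusted p 0.0391), 2.64-fold. When all kept probes were tested, a dimmer probe of the gene gave -2.07 (SE 0.43, adjusted p 0.0556) and the brighter one an adjusted p of 0.0528. The Plxnc1 call was lost in 5 of 6 fits with 1 array left out (adjusted p 0.0777 to 0.119) and held without induced replicate 3 (0.0219). With spike-in scaling its difference was -0.12, and with median centring it did not pass (-1.24, adjusted p 0.0803).

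Other semaphorins were lower in induced cells once arrays were compared within replicates. Sema6b, a membrane-bound ligand of A-type plexins, read -2.88, -1.89 and -1.28 in induced cells, against -1.00, -0.23 and 0.25 in uninduced cells. Each induced array was lower than its uninduced partner, by 1.89, 1.67 and 1.52 log2 units, and the groups did not overlap although replicates differed from each other nearly as much. That difference of -1.69 (SE 0.48) did not pass without a block (adjusted p 0.100). It passed with the replicate block (0.00269) and was -0.41 with spike-in scaling. It also passed with the array's row on the slide as a block (0.0413). That block was chosen after seeing the data and only parts replicate 3 from replicates 1 and 2, so it is no separate support. With the technical repeats added the difference was -1.81, but that fit counts them as a further replicate, so its p-value is not used here. Sema3b, a secreted semaphorin, read -0.99, -0.04 and -0.61 in induced cells, against -0.01, 1.26 and 0.87 in uninduced cells. Its groups lay side by side without overlap. Its difference was -1.25 (SE 0.38, adjusted p 0.123, 0.00723 with the block), and without uninduced replicate 1 it passed without the block (-1.61, adjusted p 0.0460). Sema3e, the secreted ligand that binds plexin-D1 without a neuropilin, read 0.05, -0.50 and -0.15 in induced cells, against 1.32, 0.79 and 0.28 in uninduced cells. These groups did not overlap, and the difference of -1.00 (SE 0.29) had an adjusted p of 0.110, and 0.0360 with the block. Scaled to the spike-ins, Sema3b and Sema3e differed by 0.03 and 0.29, so their direction rests on scaling to the overall signal.

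The remaining 12 semaphorins tested passed in neither fit, and their differences lay between -1.08 and 0.57. Sema3g, a secreted semaphorin of arterial endothelium, read -4.40, -3.93 and -3.17 in induced cells, against -4.11, -2.72 and -1.41 in uninduced cells, lower in all 3 pairs but with an adjusted p of 0.393 (0.0670 with the block). Of the other secreted class, Sema3a differed by 0.38 (SE 0.31), Sema3c by -0.11 (SE 0.88) and Sema3f, which signals through neuropilin-2, by -0.43 (SE 0.56). A dimmer probe of Sema3a gave -0.39 (SE 0.35), so that gene has no settled direction. The large SE of Sema3c reflects arrays from -2.85 to -0.60 in induced and from -3.33 to -0.39 in uninduced cells. Sema4c read 4.77, 5.41 and 5.14 in induced cells, against 4.72, 5.20 and 5.43 in uninduced cells, a difference of -0.01 (SE 0.25). Sema6a differed by -0.31 (SE 0.26).

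Among the plexins, the semaphorin receptors, Plxnc1 alone was called, and the other 8 had differences from -0.52 to 0.42. Plxnd1, the receptor of Sema3e in endothelium, differed far more between replicates than between groups. It read 4.43, 5.95 and 6.83 in induced cells, against 4.62, 5.99 and 6.77 in uninduced cells. Within pairs the differences were only -0.19, -0.04 and 0.06, and the mean difference was -0.05, with an SE of 0.74 without and 0.12 with the block. Plxna2 differed by -0.52 (SE 0.18, adjusted p 0.172), without overlap of the groups. The Sema4d receptor Plxnb1 read -3.42, -4.01 and -3.65 in induced cells, against -3.15, -3.32 and -3.15 in uninduced cells. That difference of -0.49 (SE 0.19) did not pass in limma (adjusted p 0.199, 0.0720 with the block). Plxnb2, another plexin of class B, differed by -0.41 (SE 0.25).

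**Figure D2:**
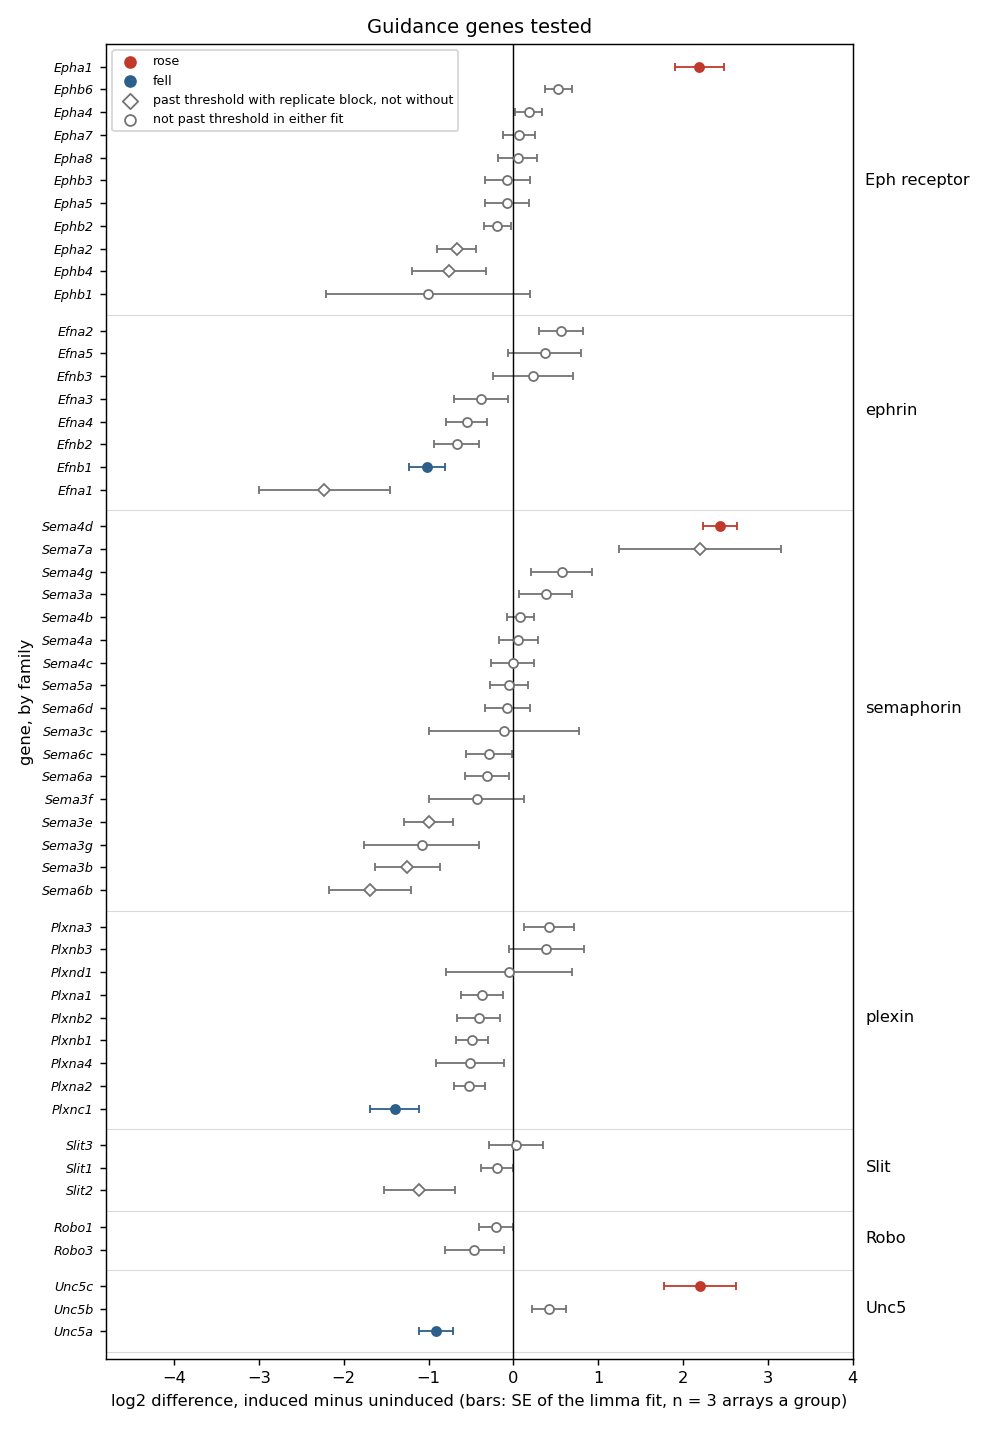
Log2 difference, induced minus uninduced (x axis), for the 53 guidance genes tested, by family (y axis). Points are limma estimates and bars their SE with 3 arrays a group. Filled points passed the threshold, open diamonds passed with the replicate block but not without it, and open circles passed in neither fit. Most points lie within 1 log2 unit of 0, and Sema4d, Unc5c, Sema7a and Epha1 lie farthest to the right.

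Of the 8 ephrins, all tested, 1 fell. Efnb1, which encodes the transmembrane ephrin-B1, read 4.16, 3.49 and 3.66 in induced cells, against 4.63, 4.80 and 4.94 in uninduced cells. The groups did not overlap, and the difference of -1.02 (SE 0.21, 2.02-fold lower) had an adjusted p of 0.0411 in limma. With spike-in scaling the difference turned to 0.27, and with median centring it was -0.86 and did not pass (adjusted p 0.0706). It was lost in 5 of 6 fits with 1 array left out (adjusted p 0.0610 to 0.147) and held without induced replicate 1 (0.0272).

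Efna1, which encodes ephrin-A1, a ligand that endothelial cells make in response to inflammatory signals, had the lowest difference of all members. It read -0.37, 0.18 and 1.87 in induced cells, against 1.46, 2.96 and 3.94 in uninduced cells. The groups overlapped because replicates differed widely, while within pairs it was lower by 1.84, 2.79 and 2.07 log2 units. This difference of -2.23 (SE 0.77) did not pass without a block (adjusted p 0.164) and passed with the replicate block (0.00435). It also passed with the array's row on the slide as a block (0.0347), which is no separate support, as said for Sema6b. With spike-in scaling it was -0.94. Efnb2, the arterial ephrin, read 3.09, 2.32 and 2.76 in induced cells, against 3.05, 3.40 and 3.73 in uninduced cells. Replicate 1 showed next to no difference (0.04), unlike replicates 2 and 3 (-1.08 and -0.96), and the mean difference of -0.67 (SE 0.26) passed in neither fit (adjusted p 0.206, 0.133 with the block). A dimmer probe of Efnb2 gave -1.00 (SE 0.48). The 6 ephrins that passed in neither fit ranged from -0.67 to 0.56.

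Of 14 Eph receptor genes, 11 were tested and 1 rose. Epha1, which encodes the founding member of the receptor family, read -2.13, -1.44 and -1.47 in induced cells, against -4.39, -3.64 and -3.58 in uninduced cells. Replicate 1 was lowest in both groups, and the 3 pairs differed by 2.26, 2.20 and 2.10. Epha1 rose by 2.19 (SE 0.29), or 4.55-fold (limma, adjusted p 0.00978, and 0.0150 to 0.0430 with 1 array left out). With normexp background correction, whose offset shrinks changes from dim signals, it was 1.14 and did not pass (adjusted p 0.0651).

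The venous receptor gene Ephb4 and the ephrin-A1 receptor gene Epha2 were lower in induced cells within each pair. Ephb4 read 2.52, 3.05 and 3.66 in induced cells, against 3.05, 3.93 and 4.53 in uninduced cells, and the groups overlapped. Its difference of -0.76 (SE 0.44) had an adjusted p of 0.362, and 0.0230 with the block. It was -1.15 without uninduced replicate 1, -0.48 without induced replicate 1 and -0.41 without uninduced replicate 3. A dimmer probe of Ephb4 gave -1.14 (SE 0.40). Epha2 read 3.36, 2.71 and 3.48 in induced cells, against 3.86, 3.69 and 4.01 in uninduced cells, a difference of -0.67 (SE 0.23, adjusted p 0.166, 0.0412 with the block) that was -0.44 without induced replicate 2. Scaled to the spike-ins both were above 0, with 0.53 for Ephb4 and 0.61 for Epha2.

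The other 8 Eph receptors differed by -1.01 to 0.53 and passed in neither fit. Ephb3 read 3.94, 4.66 and 4.28 in induced cells, against 3.97, 4.50 and 4.63 in uninduced cells, a difference of -0.07 (SE 0.26). Ephb2 differed by -0.19 (SE 0.16). Ephb1 had the widest spread, with -5.43, -5.59 and -2.06 in induced cells, against -4.93, -3.66 and -1.46 in uninduced cells, and was not well above background on 1 induced array. For Ephb6, an Eph receptor without kinase activity, the 2 probes disagreed. The brighter gave 0.53 (SE 0.16) and the dimmer -1.28 (SE 0.32), and in each case the groups did not overlap, so the gene has no settled direction. For Epha7 the brighter probe gave 0.07, while another kept probe gave 2.03 (SE 0.51), with an adjusted p of 0.0937 over all kept probes. That probe read -2.15, -2.19 and -2.16 in induced cells, against -3.35, -3.77 and -5.45 in uninduced cells, where 2 of 3 arrays were well above background.

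**Figure D3:**
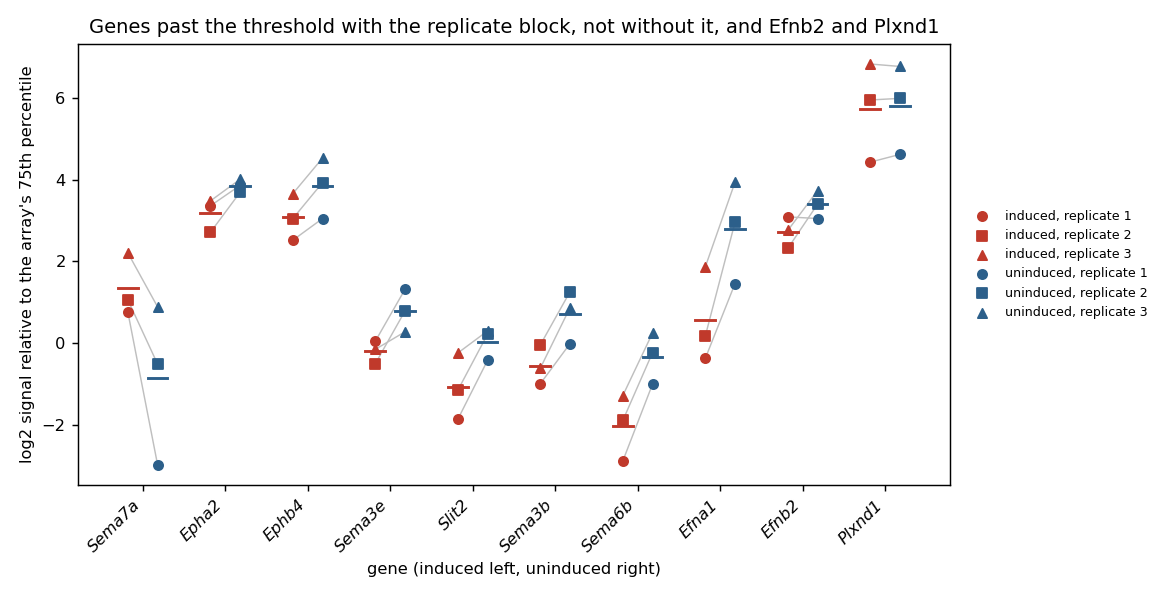
Log2 signal relative to the array's 75th percentile (y axis) for the 8 guidance genes that passed the threshold with the replicate block but not without it, and for Efnb2 and Plxnd1 (x axis), with induced arrays on the left and uninduced arrays on the right. Points are arrays, short bars are group means, and grey lines join arrays with the same replicate number. The lines of Efna1, Sema6b and Ephb4 run in parallel while their replicates are far apart, and those of Plxnd1 are nearly level.

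The netrin receptor genes of the Unc5 family moved in both directions. Unc5c, a receptor through which netrin-1 repels axons, read -0.92, -0.49 and -0.67 in induced cells, against -3.56, -1.92 and -3.19 in uninduced cells. The induced arrays lay close together, and uninduced replicate 2 was the highest of its group. Unc5c rose by 2.20 (SE 0.42, 4.59-fold, limma adjusted p 0.0292), and by 1.40 with normexp (adjusted p 0.0360). The call was lost in 5 of 6 fits with 1 array left out (adjusted p 0.0555 to 0.0961) and held without uninduced replicate 2 (0.0105). A dimmer probe of the gene gave 1.55 (SE 0.52) and did not pass, nor did the mean of both probes (1.88, adjusted p 0.0548).

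Unc5a read -2.61, -3.28 and -3.03 in induced cells, against -2.02, -2.05 and -2.13 in uninduced cells. Its uninduced arrays were nearly alike and all above the induced ones. Unc5a fell by 0.91 (SE 0.20, 1.87-fold), with an adjusted p of 0.0479, just under the threshold. The call was lost with quantile normalization (-0.78, adjusted p 0.102), with median centring (-0.74) and in 5 of 6 fits with 1 array left out (adjusted p 0.0887 to 0.169), and with spike-in scaling the difference turned to 0.38. It held without induced replicate 1 (0.0308). Unc5b, the family's receptor in endothelial cells, read 5.19, 4.70 and 4.94 in induced cells, against 4.33, 4.41 and 4.83 in uninduced cells. It was higher in all 3 pairs, but the difference of 0.42 (SE 0.20) passed in neither fit (adjusted p 0.288, 0.169 with the block).

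Slits and Robo receptors held no call in the fit without the block. Slit2, a secreted Robo ligand, read -1.86, -1.15 and -0.24 in induced cells, against -0.42, 0.22 and 0.30 in uninduced cells. It was lower in all 3 pairs, by 1.43, 1.36 and 0.54, and the difference of -1.11 (SE 0.42) had an adjusted p of 0.196, and 0.0281 with the block. The technical repeats differed by only -0.06, and with spike-in scaling the difference was 0.18. It was -0.72 without induced replicate 1. Slit3 differed by 0.03 (SE 0.32) and Slit1 by -0.19 (SE 0.19). Robo1 read 1.15, 0.47 and 0.60 in induced cells, against 0.94, 0.95 and 0.92 in uninduced cells, a difference of -0.20 (SE 0.20), and Robo3 differed by -0.46 (SE 0.35).

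Other genes of the same pathways were followed as a list of 66 coreceptors, ligands and effectors, of which 61 were tested, 3 rose and 3 fell. That is 9.84%, against the 6.31% of all genes. With the block 8 rose and 11 fell (31.1%, against 16.2% of all genes), and with spike-in scaling 6 rose and 0 fell. When only genes well above background on all 6 arrays were tested, 4 of 58 were called (6.90%, against 5.29% of all genes). Ntn1 and Ntn4 were left out by this filter. Ntn1, which encodes netrin-1, a ligand of the Unc5 receptors, read -2.01, -1.50 and -2.12 in induced cells, against -5.39, -6.00 and -5.24 in uninduced cells. It passed the filter through the induced arrays, where it is high. Of the uninduced arrays only 1 had it well above background, so the size of the difference rests on a poorly measured uninduced level. Ntn1 rose by 3.67 (SE 0.27, adjusted p 0.00189), and by 1.13 with normexp. Ntn4, a netrin of vascular basement membranes, read -4.66, -4.49 and -5.53 in induced cells, against -2.18, -2.06 and -2.87 in uninduced cells, with only 2 induced arrays well above background, so that it passed the filter through the uninduced arrays. Ntn4 fell by 2.52 (SE 0.34, adjusted p 0.0100), although its difference was -1.33 with normexp and -1.23 with spike-in scaling, where it did not pass (adjusted p 0.178). Flrt2, whose protein is a ligand of Unc5 receptors, fell by 1.52 (SE 0.22, adjusted p 0.0127). That call was lost without uninduced replicate 2 (adjusted p 0.0626) and without induced replicate 2 (0.0501), and with spike-in scaling the difference was -0.24.

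Of the 44 adaptors and effectors tested, Ngef, Vav3 and Rnd1 were called. That is 6.82%, close to the 6.31% of all genes. With the block 27.3% were called, against 16.2% of all genes. Ngef, or ephexin, a GTPase exchange factor that acts downstream of EphA receptors, read -1.12, -1.43 and -0.47 in induced cells, against -4.27, -3.79 and -4.21 in uninduced cells. Ngef rose by 3.08 (SE 0.28, adjusted p 0.00298) and by 1.54 with normexp. Vav3, another exchange factor used by Eph receptors and by blood cells, rose by 1.02 (SE 0.14, adjusted p 0.0109), yet failed the threshold without uninduced replicate 2 (adjusted p 0.0555) or with spike-in scaling (2.31, adjusted p 0.0617). Rnd1, a GTPase-like protein that binds plexins, fell by 1.84 (SE 0.34, adjusted p 0.0282). The Rnd1 call was lost in 4 of 6 fits with 1 array left out, namely without replicate 1 or 2 of the uninduced and replicate 2 or 3 of the induced arrays (adjusted p 0.0576 to 0.0948), and with spike-in scaling the difference was -0.55.

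Robo4, the Robo receptor of endothelium, read -0.65, 1.53 and 3.58 in induced cells, against 2.91, 4.82 and 5.68 in uninduced cells. Replicates were far apart in both groups, and the difference of -2.99 (SE 1.15) had an adjusted p of 0.199, and 0.00512 with the block. It was -1.92 without induced replicate 1. Both neuropilin genes were lower by less. Nrp2 read 5.63, 5.35 and 5.47 in induced cells, against 5.95, 5.98 and 6.09 in uninduced cells, a difference of -0.52 (SE 0.14, adjusted p 0.0953, 0.0558 with the block). Nrp1 differed by -0.32 (SE 0.20).

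**Figure D4:**
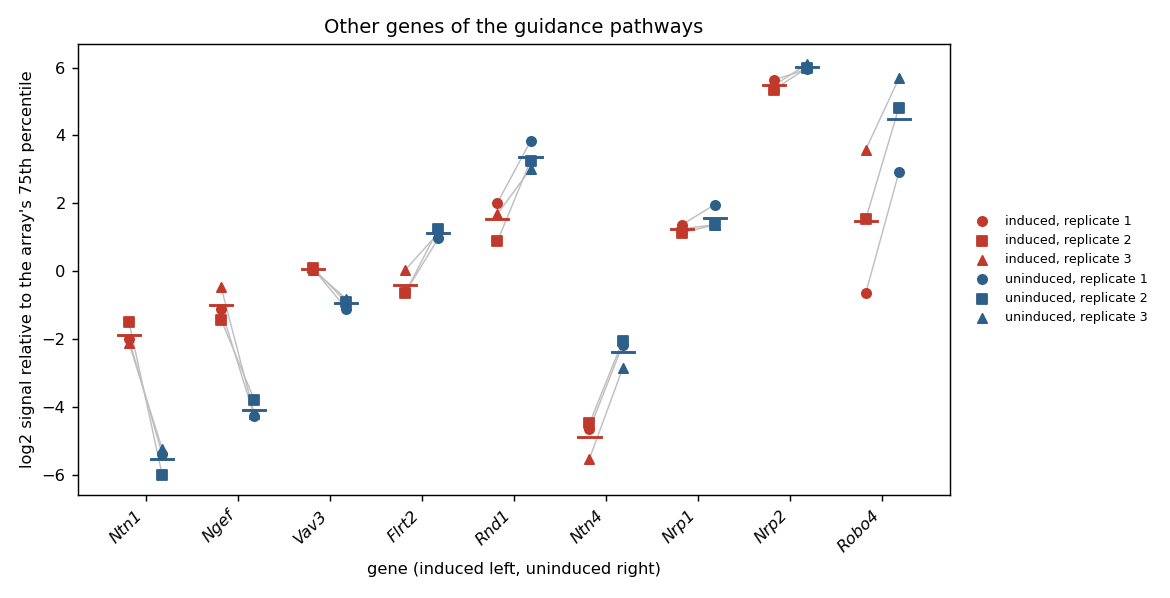
Log2 signal relative to the array's 75th percentile (y axis) for other genes of the guidance pathways (x axis), with induced arrays on the left and uninduced arrays on the right. Points are arrays, short bars are group means, and grey lines join arrays with the same replicate number. Ntn1, Ngef and Vav3 lie higher in induced cells, while Flrt2, Rnd1 and Ntn4 lie lower, and the arrays of Robo4 spread over more than 2 log2 units in each group.

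Markers of the cell types in such cultures were followed as well. Their summed signals are in multiples of the 75th percentile. For the counts below, 4.14% of all genes rose and 2.17% fell, or 9.37% and 6.81% with the block. Of 14 blood markers 7 rose and 0 fell (8 and 0 with the block), with sums of 68.2 to 70.6 on induced arrays and 7.48 to 11.3 on uninduced arrays. The 7 were Spn, Itgb3, Myb, Ikzf1, Gfi1, Was and Coro1a. Myb and Ikzf1 passed the filter through the induced arrays, where they are high. Of the uninduced arrays, only 2 had Myb and only 1 had Ikzf1 well above background. The sizes of these rises thus rest on poorly measured uninduced levels. Itgb3 was the highest of the list on each induced array (5.65, 4.95 and 5.24) and weighs most in these sums. Ptprc (-0.19) and Cd48 (-0.12) differed little. Itga2b, Gp1ba, Gfi1b, Vav1 and Laptm5 had higher means in induced cells. Gp1ba did not pass in limma (adjusted p 0.186) but passed with the block (0.00421), and the others passed in neither fit. Of 12 endothelial markers, all of which passed the filter, 0 rose and 2 fell (Tek and Eng), while with the block 1 rose and 7 fell. Their sums were 103 to 283 on induced and 227 to 570 on uninduced arrays. With spike-in scaling the differences of Tek (-1.13) and Eng (-0.92) turned to 0.16 and 0.37, and the median of the endothelial markers moved to 0.26, against -1.02 without it. Of 10 arterial markers 2 fell (5 with the block), with sums of 5.60 to 10.2 on induced and 15.9 to 44.2 on uninduced arrays. Of 7 venous and lymphatic markers tested 0 were called, and with the block 1 rose and 3 fell, with sums of 47.0 to 58.6 on induced and 67.3 to 89.9 on uninduced arrays. Of 8 smooth muscle and mesenchyme markers 0 were called, and with the block 1 rose and 1 fell, with sums of 563 to 664 on induced and 757 to 882 on uninduced arrays, which do not overlap. Of 5 cardiac markers 1 fell (3 with the block), with sums of 6.23 to 24 on induced and 14.1 to 59.5 on uninduced arrays. Of 3 pluripotency markers 0 were called in either fit, with sums of 0.797 to 0.994 on induced and 0.859 to 1.65 on uninduced arrays. Among neural markers 6 of 10 (Sox2, Pax6, Neurog2, Dcx, Elavl3 and Map2) did not pass the filter and 0 of the other 4 were called in either fit, with sums of 32.0 to 50.2 on induced and 31.7 to 40.5 on uninduced arrays. As Itgb3 does in the blood sums, a few genes weigh most in some other sums. These are Nrp2 in the venous and lymphatic sums, Acta2 and Tagln in the mesenchyme sums, and Tubb3 and Nes in the neural sums. Acta2 differed by -0.65 (limma adjusted p 0.0542, 0.0267 with the block). The part of the listed cell types in the differences above was not tested, and in bulk RNA fewer cells of a type and less RNA per cell cannot be told apart.

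The array of a technical repeat differed in the same direction as the test for all 6 genes called and for all 14 called with the block, but the labels do not say which RNA it holds. As a technical repeat it would measure RNA already in the test, so the shared direction is no independent check. The induced repeat correlated by 0.9652 to 0.9782 with the induced arrays, which correlated by 0.9844 to 0.9888 with each other.

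Of the tested members, 13 of 53 had groups that did not overlap (24.5%, against 28.3% of all genes). Values were lower in all 3 pairs in 18 members and higher in 10, against 21.8% and 37.8% of all genes. The 8 members not tested were Epha3, Epha6, Epha10, Robo2, Sema3d, Sema4f, Sema5b and Unc5d. Epha6, Epha10, Sema4f and Unc5d were well above background on 0 arrays. Robo2 passed that flag on the most arrays, with each of its 2 probes well above background on 2 induced arrays and 1 uninduced array.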

How the data were processed

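RNA was hybridised to Agilent 1-colour arrays. The authors deposited spot intensity on a linear scale, with flags of 0 and 1 for background, saturation and outliers. Per the file headers they came from Agilent Feature Extraction 10.7.3.1, whereas version 10.7.1.1 and limma are named in the submitters' processing notes. A deposited table of log2 values per spot, whose scaling and centring stay unknown, has column medians of 5.36 to 5.38. Of its 8 columns only 2 followed the array that their name gives, and it served as an alternative only.

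Control spots and spots marked as outliers (114 to 246 on an array) were dropped, and 0 spots were saturated. From each log2 processed signal the array's own 75th percentile was subtracted, and repeated spots were averaged by probe. RefSeq accessions gave 1 symbol to 26582 probes and none to 29099 (GRCm38.p6 table, used for names). The brightest kept probe stood for a gene. The fit used limma 3.58.1 in R 4.3.3 (lmFit, then eBayes, two-sided) and was tested on simulated data. Members and lists were chosen with earlier results of these data known. Genes named were those called in either fit, the brightest of each family, a list of vascular genes, and other pathway genes that were called, with Nrp1, Nrp2 and Robo4. Ephb1, Ephb6, Epha7, Slit1 and Robo3 were named after their values were seen. Deviations of arrays with the same replicate number correlated by 0.646, 0.451 and 0.431, so the numbers were taken to pair them. Such arrays of replicates 1 and 2 lay side by side on the slide. A shared culture and a shared position thus cannot be told apart there. All arrays lay on 1 slide and were scanned at 1 time. Alternatives were other background corrections, scalings, filters and probe rules, the block, the technical repeats and each array left out. The number of arrays limits the precision.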

Additional observations from a re-analysis of the deposited data

How the results depend on the processing

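Guidance genes past the threshold numbered 6, and 14 with the replicate block, 3 with median centring, 2 without the filter on dim probes (where 20126 genes were tested) and 2 to 4 with 1 array left out. The other pathway genes numbered 6, and 19 with the replicate block, 12 with the technical repeats added and 3 to 7 with 1 array left out. All genes numbered 915, and 2346 with the replicate block, 1584 with the technical repeats added, 534 without the filter and 378 to 824 with 1 array left out. Fits with the technical repeats added count them as a further replicate, so those counts overstate the replication. The authors' table read by its column names gave 0 calls in limma for all 3 counts, with 1, 1 and 224 genes at an unadjusted p under 0.05. There Flrt2 (0.12), Ntn1 (-0.06) and Ntn4 (0.18) changed sign. However, 6 of its 8 columns tracked another array, and in order the columns followed the uninduced arrays and then the induced ones. Reading by name thus mixes the groups, so these 0 calls and changed signs do not bear on the processing. Among the called guidance and pathway genes, spike-in scaling turned Efnb1 (0.27) and Unc5a (0.38). For other changes of setting the cause was not tested. The block changed no other call among the genes named. The row of the array on the slide as a block, chosen after seeing the data, gave 6 guidance genes and 1018 genes in all, with Efnb1 (adjusted p 0.0577) and Unc5a (0.0630) lost and Efna1 (0.0347) and Sema6b (0.0413) gained. A block for slide or scan was not run, as all arrays shared them. Normexp used the median spot signal in place of the mean. Dim genes such as Epha1 are limited by signal over background.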
